A study of Mus musculus with 6 samples.

Results

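Fatty acids are broken down by β-oxidation, a cycle of oxidation, hydration, a further oxidation and thiolysis that takes acetyl-CoA off the chain at each turn. Mitochondria take up long chains through the carnitine shuttle, pass the electrons of the first oxidation to the electron transfer flavoprotein and oxidise most of the common fatty acids, whereas peroxisomes import very long, branched and other chains as acyl-CoA through ABC transporters, shorten them and hand the products on. White adipocytes are known above all for storing fat, they hold fewer mitochondria than brown adipocytes, and the peroxisome proliferator-activated receptors (PPARs) are the best known regulators of genes on both sides. The genes described here are 44 enzymes, carriers and accessory proteins of these routes, and all 44 were found among the 24421 gene symbols of the count tables. By the place where the protein is known to act, 21 were placed in the mitochondrion, 17 in the peroxisome, 5 in more than 1 compartment and 1 (*Acot1*) in the cytosol.

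The libraries came from 3T3-L1 cells, a mouse line that turns into adipocytes in culture, here labelled with the strain C57BL/6. Confluent cells were given 10% CS, 870 nM insulin, 5 µM TZD, 1 µM Dex and 500 µM IBMX, with Dex and IBMX left out from day 3, and were infected on day 7 with 100 pfu/cell of an adenovirus carrying LacZ (AdLacZ, the control) or a codon-optimized murine *Lmo3* (AdLmo3). RNA was taken 3 days (72 h) later from 3 separate infections per virus, so that both groups share the line, the cocktail, the dose of virus and the time, and differ in the gene carried. The replicates are repeat infections of a cultured line and not animals.

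Each library held 28035639 to 38332335 counts on genes. *Lmo3* itself was at 0 counts in each of the 6, where 3 counts (taken as the detection floor; counting error only) would be 0.0783 to 0.107 CPM (counts scaled to a common library size), and since the virus carries a codon-optimized sequence, the labels could not be checked through this gene. Fold changes, their standard errors (SE) and p-values were taken from edgeR's quasi-likelihood test after TMM scaling, with Benjamini-Hochberg adjustment over the 12766 genes that passed its filter on low counts. A gene was called at an adjusted p under 0.05. That held for 547 genes, of which 346 were higher and 201 lower in AdLmo3. With scaling by library totals only, the split was 266 higher and 501 lower of 767.

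Of the 44 genes, 43 passed the filter. *Acot4*, a peroxisomal acyl-CoA thioesterase, did not, with 1 read in AdLmo3 replicate 2 and none elsewhere. *Crat*, *Scp2* and *Phyh* rose with AdLmo3 and *Acot2* fell, while the other 39 were not called. These 4 genes are 9.30% of the 43, where 4.28% of all tested genes were called (2.71% higher and 1.57% lower). Small differences pointed mostly upward: 31 of the 43 had a log2 fold change above 0 (72.1%, against 50.4% of all tested genes), and their median was 0.10 against 0.0014 over all tested genes. With library totals only, 24 of 43 were above 0, against 34.9% of all tested genes, whose median moved to -0.07.

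The groups of 3 libraries did not overlap for 17 of the 43 genes, 15 higher and 2 lower (*Acot2* and *Acaa2*). That is 39.5%, where 26.5% of all tested genes did not overlap, 13.3% higher and 13.2% lower. At an unadjusted p under 0.05 there were 16 of 43 (37.2%), 14 higher and 2 lower, against 20.6% of all tested genes. With library totals only, a reading added after the data were seen, 15 of the 43 genes (34.9%) had groups that did not overlap. Of these, 12 were higher and 3 lower. Of all 12766 tested genes, 30.7% did not overlap, 1043 of them higher and 2870 lower. No gene of the list moved far: 8 of the 43 had a fitted change of over 25% up or its equal downward (below 0.8 times), and the log2 fold changes ran from -0.78 to 0.48. In bulk RNA such as this, fewer cells of a type and less RNA per cell cannot be told apart.

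**Figure D1:**
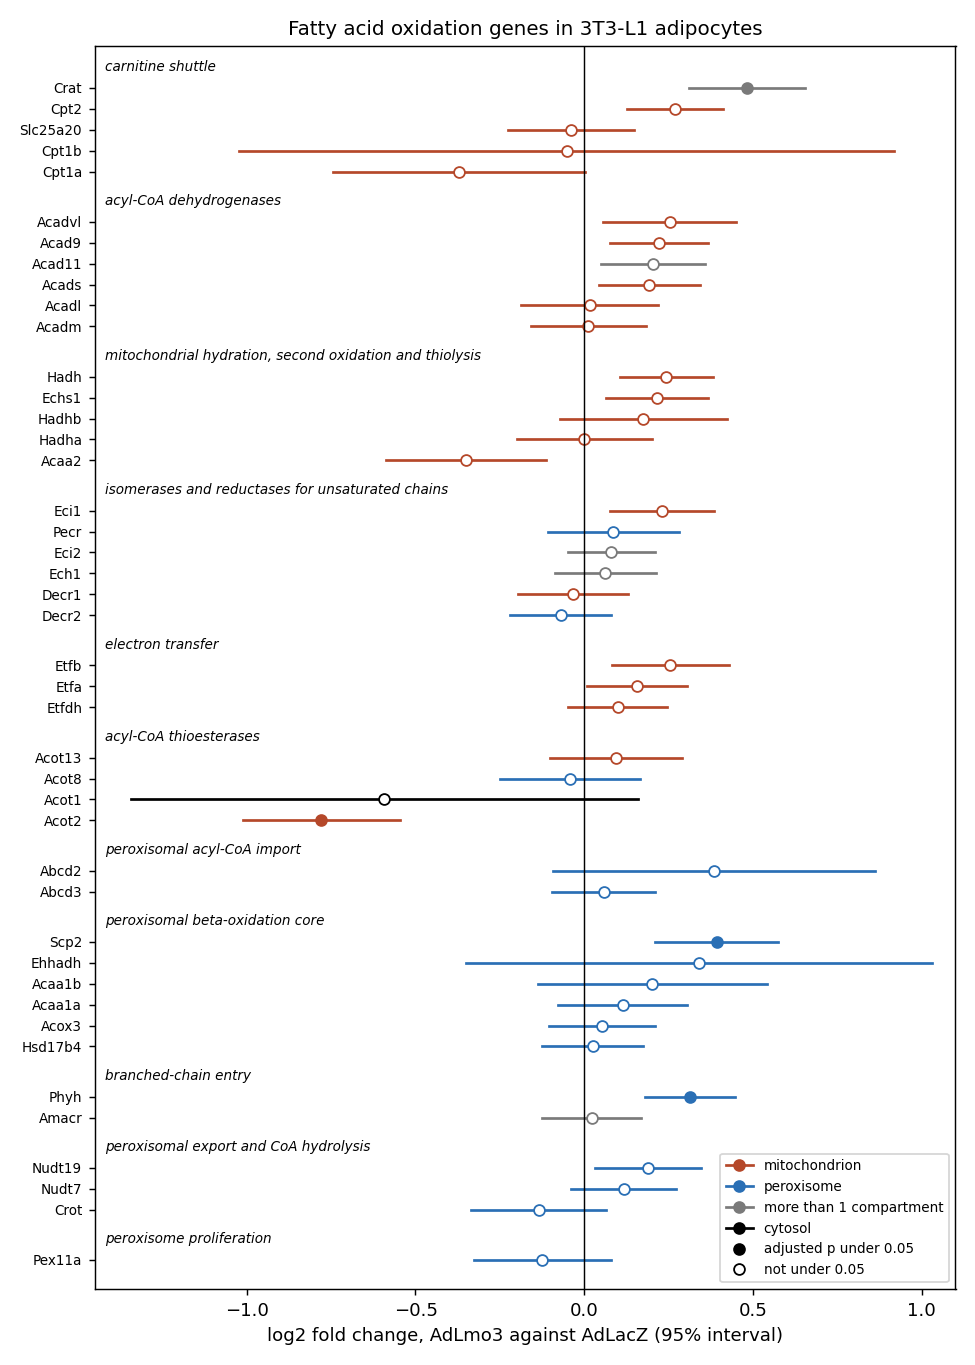
Log2 fold change of AdLmo3 against AdLacZ (x axis, with 95% interval) for the 43 tested genes, grouped by role, with colour for the compartment and filled points for an adjusted p under 0.05. The filled points are *Crat*, *Scp2* and *Phyh* on the right and *Acot2* on the left, and most of the open points lie a little to the right of 0.

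Markers of fat cell differentiation moved with the same contrast. All 12 adipocyte markers on the list had a log2 fold change above 0, with a median of 0.59, and 9 of them were called higher (75.0%). Their summed level was 21230 to 23344 CPM in AdLacZ and 28964 to 34839 CPM in AdLmo3, with means of 22457 ± 1098 and 32339 ± 3034 CPM (SD, n = 3 each). Among the called were *Retn* (1.44, adjusted p = 0.00243, edgeR), *Adipoq* (1.05, 0.00724), *Cfd* (0.81, 0.00780), *Cidec* (0.69, 0.00352), *Fabp4* (0.62, 0.0187) and *Lipe* (0.59, 0.0179), in log2 fold change and adjusted p. *Retn* and *Cidec* were called whichever library was left out. Without AdLacZ replicate 3 the adjusted p was 0.0554 for *Adipoq*, 0.0601 for *Cfd*, 0.0947 for *Fabp4* and 0.0840 for *Lipe*. *Fabp4* also lost its call without AdLacZ replicate 2 (0.0632) or AdLmo3 replicate 2 (0.0834), and *Lipe* without AdLacZ replicate 1 (0.0579) or 2 (0.0572) or AdLmo3 replicate 2 (0.0872).

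Of 14 preadipocyte and fibroblast markers, 13 were tested and 0 called in edgeR, DESeq2 or limma voom, with 0 also at an unadjusted p under 0.05 in edgeR. Their sums overlapped, with 23629 to 30723 CPM in AdLacZ and 22890 to 35225 CPM in AdLmo3. *Col1a1*, *Col1a2* and *Col3a1* held most of the sum, with AdLacZ means of 5104, 8308 and 11379 CPM of 27786 CPM. The sum therefore says little of the other markers. *Dpp4* had 1 read in 1 library. Of 5 brown and brite adipocyte markers, 3 were tested and 0 called by any of the 3 tools (also 0 at an unadjusted p under 0.05 in edgeR), and the defining *Ucp1* was at 0 to 2 reads. The part of the markers in the results on the oxidation genes was not tested. For scale, the summed level of the 44 oxidation genes was 7517 ± 59.0 CPM in AdLacZ and 8237 ± 152 CPM in AdLmo3 (SD, n = 3 each), 9.57% higher on the means. Scaled by library totals only, it was 4.14% higher, and the groups overlapped (7597 to 7871 CPM against 7807 to 8272 CPM), whereas the adipocyte marker sums stayed apart (36.8% higher).

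The carnitine shuttle brings acyl groups across the mitochondrial membranes. *Crat*, the carnitine acetyltransferase of mitochondria and peroxisomes, exchanges acetyl groups between CoA and carnitine at the far end of the route. In AdLacZ replicates 1, 2 and 3 it stood at 431, 460 and 404 CPM, and in AdLmo3 replicates 1, 2 and 3 at 624, 597 and 586 CPM; values of other genes below follow the same order. Each AdLmo3 library was thus above each AdLacZ library. This came to a log2 fold change of 0.48 (SE 0.074), or 39.7% higher (95% interval 24.1% to 57.2%), with an adjusted p of 0.0135 (edgeR). Without AdLacZ replicate 3 the adjusted p was 0.0785 and without AdLmo3 replicate 2 it was 0.0669, with log2 fold changes of 0.44 and 0.49. *Crat* lies on chromosome 2 (GRCm38, chr2:30400471-30415813, minus strand), and 8.72% of its exon bases overlap genes on the opposite strand.

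*Cpt2*, the inner membrane enzyme that returns acyl groups from carnitine to CoA, gave 184, 175 and 188 CPM in AdLacZ and 218, 218 and 222 CPM in AdLmo3. The groups lay apart, with little spread in AdLmo3. Its log2 fold change of 0.27 (SE 0.062) came with an adjusted p of 0.0532 in edgeR, so it was not called; limma voom (0.0406), DESeq2 (0.00293) and a stricter filter on low counts (0.0487) put it under the threshold. *Slc25a20*, the carrier that swaps acylcarnitine for carnitine across the inner membrane, was at 45.3 ± 4.36 and 44.1 ± 1.65 CPM (mean and SD of AdLacZ and of AdLmo3, n = 3 each), with a 95% interval of the log2 fold change from -0.22 to 0.15.

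*Cpt1a* encodes the liver type of the outer membrane enzyme that commits long chains to the shuttle and is blocked by malonyl-CoA. Its libraries were at 92.2, 59.8 and 75.0 CPM in AdLacZ and 58.2, 49.96 and 67.5 CPM in AdLmo3. The means were lower in AdLmo3, but the groups overlapped. The log2 fold change was -0.37 (SE 0.16, interval -0.74 to 0.0027, adjusted p = 0.246, edgeR). *Cpt1b*, the muscle type, was near the floor, at 0.309, 0.307 and 0.177 CPM in AdLacZ and 0.351, 0.190 and 0.222 CPM in AdLmo3 (interval -1.02 to 0.92). Per kb of transcript, *Cpt1a* was 205 ± 77.0 times as high as *Cpt1b* in AdLacZ and 164 ± 47.6 times in AdLmo3, ratios that overlapped. As 77.1% of the read-length stretches (75 bases) of *Cpt1b* also lie in the overlapping *Gm44502*, its few reads are uncertain.

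The acyl-CoA dehydrogenases carry out the first oxidation, each on its own range of chain lengths. All 6 had a log2 fold change above 0 (50.4% of all tested genes did) and 4 of them had groups that did not overlap (26.5% of all), though edgeR called none (4 at an unadjusted p under 0.05, as 20.6% of all were) and DESeq2 only *Acad9*. *Acadvl*, for very long chains, was at 565, 658 and 567 CPM in AdLacZ and 729, 732 and 672 CPM in AdLmo3. Its groups lay apart only narrowly, between AdLacZ replicate 2 and AdLmo3 replicate 3. Its log2 fold change was 0.25 (SE 0.085, adjusted p = 0.145, edgeR). A share of 42.9% of its exon bases overlaps *Dvl2* on the opposite strand, and the strand setting of the counts is not given in the sources used here.

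*Acadl*, for long chains, was at 392, 355 and 379 CPM in AdLacZ and 366, 349 and 423 CPM in AdLmo3. *Acadm*, for medium chains, was at 397, 400 and 406 CPM in AdLacZ and 435, 403 and 375 CPM in AdLmo3. Both pairs of groups overlapped. The intervals of their log2 fold changes, -0.19 to 0.22 for *Acadl* and -0.16 to 0.18 for *Acadm*, leave room for changes of up to about 16.4% and 13.4% upward. With library totals only their values were below 0, at -0.06 each. The short-chain enzyme *Acads* was 0.19 higher (interval 0.043 to 0.34, adjusted p = 0.146, edgeR). *Acad9*, which also serves complex I assembly, and *Acad11*, found in more than 1 compartment, stood at 0.22 (adjusted p = 0.0951) and 0.20 (0.136). These 3 genes had groups that did not overlap.

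Hydration, the second oxidation and thiolysis follow. *Echs1*, the short-chain enoyl-CoA hydratase, was at 282, 293 and 290 CPM in AdLacZ and 350, 335 and 319 CPM in AdLmo3. *Hadh*, the hydroxyacyl-CoA dehydrogenase for shorter chains, had means of 264 ± 4.96 and 313 ± 5.14 CPM (SD, n = 3 each). In both genes all AdLmo3 libraries were above all AdLacZ libraries. Their log2 fold changes were 0.22 (adjusted p = 0.114) and 0.24 (adjusted p = 0.0659) in edgeR, and DESeq2 called both (0.0355 and 0.00434).

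*Hadha* and *Hadhb* encode the α and β subunits of the mitochondrial trifunctional protein, which does the last 3 steps on long chains, and they lie back to back on chromosome 5. *Hadhb* was at 232, 279 and 235 CPM in AdLacZ and 313, 281 and 248 CPM in AdLmo3, with overlapping groups (log2 fold change 0.18, interval -0.073 to 0.42, adjusted p = 0.413, edgeR). *Hadha* had the same mean of 634 CPM in both groups, with SDs of 42.0 and 52.3 CPM (n = 3 each) and an interval of -0.20 to 0.20. Their ratio per kb was therefore lower in AdLmo3: *Hadha* was 1.31, 1.24 and 1.33 times *Hadhb* in the AdLacZ libraries and 1.12, 1.12 and 1.20 times in the AdLmo3 libraries. The ratios did not overlap, and the exact two-sided permutation test gave p = 0.1, the smallest that 3 against 3 libraries allow, and 0.6 after adjustment over the 6 ratios compared. The ratio was noted after its values were seen, and 16.7% of the *Hadhb* stretches of read length also occur elsewhere, mostly in *Gm13910*.

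*Acaa2*, the mitochondrial thiolase that splits off acetyl-CoA, went the other way, with 326, 319 and 306 CPM in AdLacZ and 289, 237 and 220 CPM in AdLmo3. All 3 AdLmo3 libraries were below the AdLacZ libraries, though AdLmo3 replicate 1 stayed close to them. The log2 fold change was -0.35 (SE 0.10, interval -0.59 to -0.11, adjusted p = 0.104, edgeR). DESeq2 called it (0.0194), and so did edgeR without AdLmo3 replicate 1, at -0.47 (adjusted p = 0.0248).

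**Figure D2:**
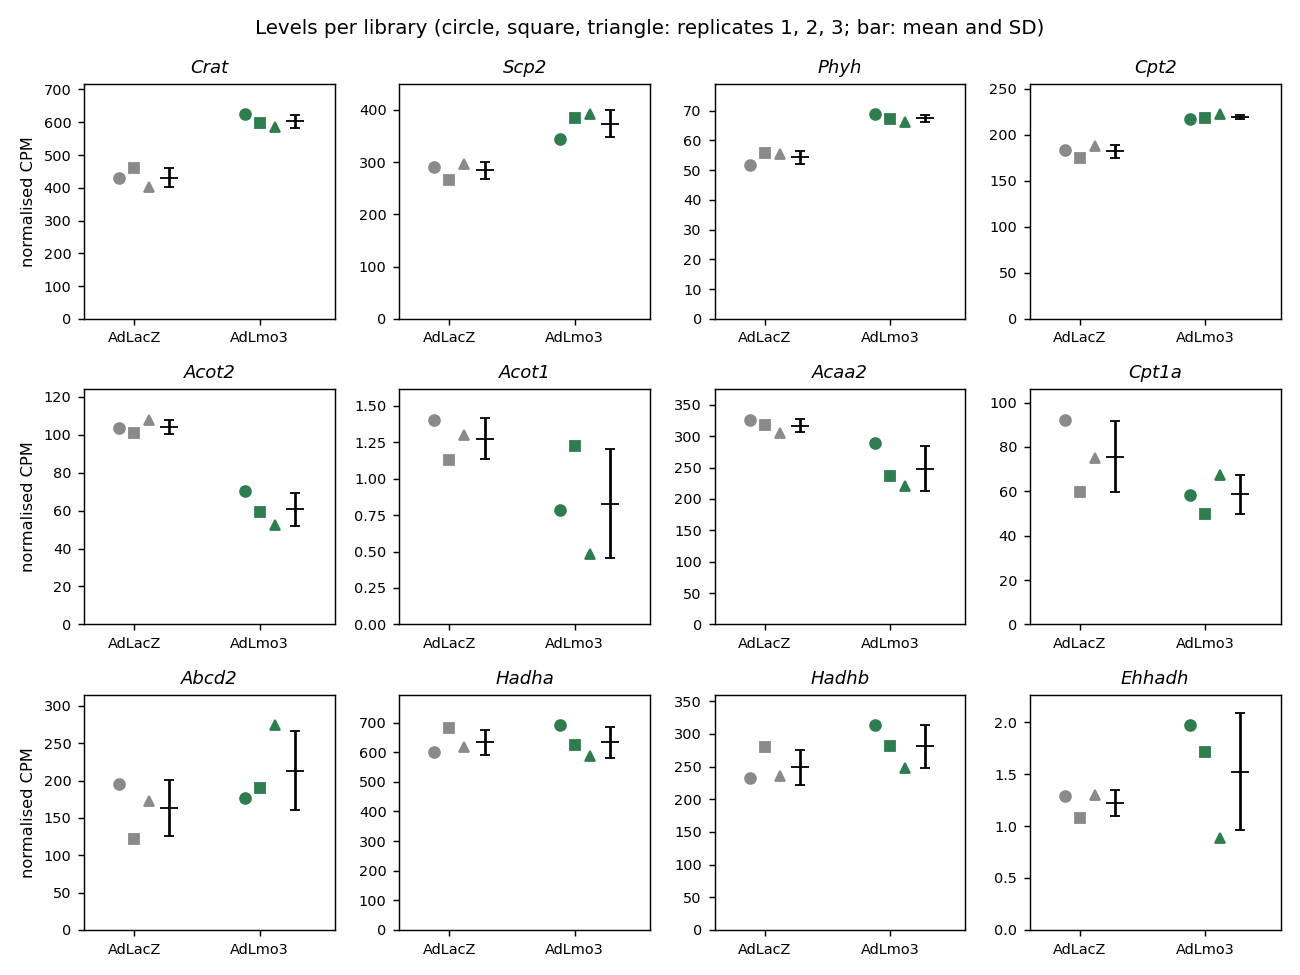
Normalised CPM (y axis, from 0) in each library for 12 of the genes, AdLacZ in grey and AdLmo3 in green, with mean and SD (n = 3) beside the points. The groups lie apart in *Crat*, *Scp2*, *Phyh*, *Cpt2*, *Acot2* and *Acaa2* and overlap in *Acot1*, *Cpt1a*, *Abcd2*, *Hadha*, *Hadhb* and *Ehhadh*.

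The isomerases and reductases bring unsaturated chains into the cycle. edgeR called 0 of the 6 (1 at an unadjusted p under 0.05). *Eci1*, the mitochondrial enoyl-CoA isomerase, was 0.23 higher (adjusted p = 0.0999, edgeR; 0.0396 in DESeq2) with groups apart, and *Eci2*, its partner in mitochondria and peroxisomes, was 0.08 higher (adjusted p = 0.479), also with groups apart. Those of *Ech1*, *Decr1*, *Decr2* and *Pecr* overlapped, with log2 fold changes of 0.06, -0.032, -0.07 and 0.09. *Ech1* was below 0, at -0.011, with library totals only.

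The electron transfer flavoprotein, made of the products of *Etfa* and *Etfb*, takes up electrons from the dehydrogenases and passes them through the product of *Etfdh* to ubiquinone. *Etfa* was at 382, 405 and 409 CPM in AdLacZ and 453, 443 and 438 CPM in AdLmo3. *Etfb* was at 349, 356 and 330 CPM in AdLacZ and 405, 443 and 388 CPM in AdLmo3. In both, the AdLmo3 libraries lay above all AdLacZ libraries. The log2 fold changes were 0.16 (SE 0.065, adjusted p = 0.215) and 0.26 (SE 0.075, adjusted p = 0.104) in edgeR, and DESeq2 called *Etfb* (0.0253). *Etfdh* was 0.10 higher with overlapping groups. In *Etfb*, 39.6% of the stretches of read length also belong to the overlapping *Gm45233*.

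Per kb of transcript, *Etfb* was the highest of the 44 genes in AdLacZ, at 386 ± 14.9 CPM per kb (SD, n = 3), followed by *Etfa* (286 ± 10.3), *Acadvl* (275 ± 24.6), *Acaa2* (209 ± 6.86), *Acadl* (196 ± 9.72) and *Acadm* (196 ± 2.33). Neighbours in this order lay within 1 SD of each other in *Etfa* and *Acadvl* and in *Acadl* and *Acadm*. In AdLmo3 *Etfb* was at 461 ± 31.8, *Acadvl* at 328 ± 15.7, *Etfa* at 319 ± 5.71 and *Echs1* at 215 ± 9.89 CPM per kb, and *Acaa2* (164 ± 23.7) was ninth. At the low end *Acaa1b* (6.09 CPM per kb in AdLacZ), *Acot1* (0.562), *Ehhadh* (0.410), *Cpt1b* (0.0913) and *Acot4* were the lowest, as they were in AdLmo3.

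**Figure D3:**
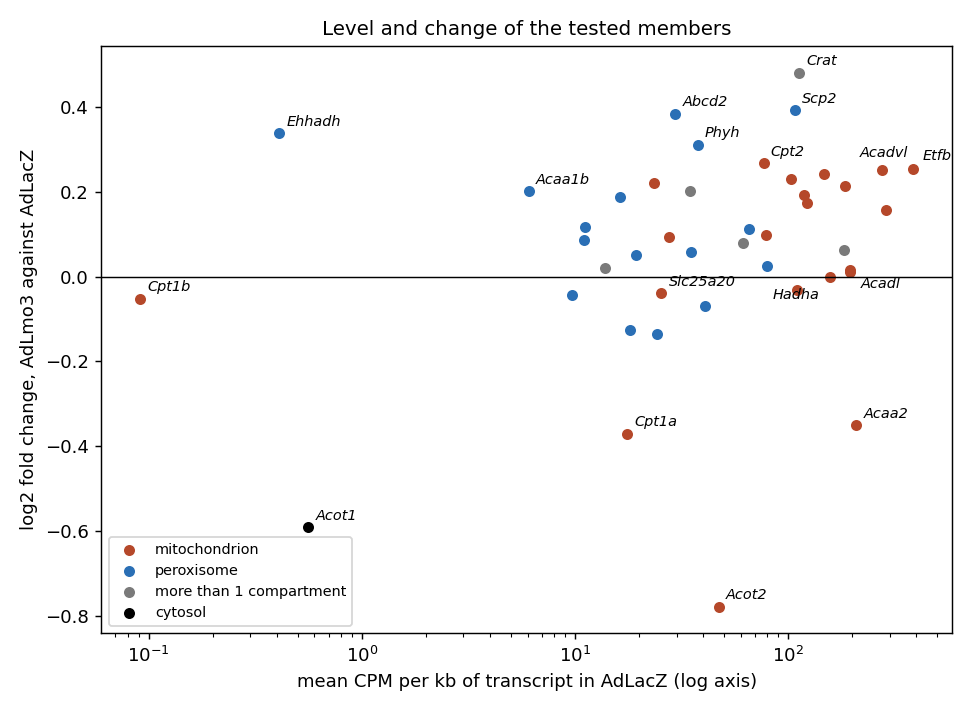
Log2 fold change (y axis) against the mean AdLacZ level in CPM per kb of transcript (x axis, log scale) for the 43 tested genes, coloured by compartment. *Etfb* lies farthest right, *Cpt1b* farthest left, and *Acot2* and *Acaa2* stand below the other genes of their level.

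Acyl-CoA thioesterases release the free fatty acid and CoA. *Acot2*, the mitochondrial member, had the largest change of all 44 genes. It was at 103, 101 and 108 CPM in AdLacZ and at 70.1, 59.0 and 52.6 CPM in AdLmo3. The AdLacZ libraries lay close together and the AdLmo3 libraries all well below them. The log2 fold change was -0.78 (SE 0.10), or -41.7% (95% interval -50.4% to -31.5%), with an adjusted p of 0.00780 (edgeR). Without AdLacZ replicate 3 the adjusted p was 0.0558 at -0.75. The level per kb dropped from 47.4 ± 1.63 to 27.6 ± 4.02 CPM per kb (SD, n = 3 each).

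*Acot1*, the cytosolic neighbour of *Acot2* on chromosome 12, was at 1.40, 1.13 and 1.30 CPM in AdLacZ and 0.783, 1.22 and 0.481 CPM in AdLmo3. AdLmo3 replicate 2 lay within the AdLacZ range. At -0.59, the log2 fold change had a wide interval (-1.34 to 0.16, adjusted p = 0.360, edgeR). *Acot2* runs on the plus strand at chr12:83987861-83993873 and *Acot1* at chr12:84009490-84018371 (GRCm38), and their coding sequences are near copies, identical at 95.3% of 1236 aligned bases, so that 434 of 1162 aligned windows of read length do not differ. The window in which they differ most is printed because it is where reads can best be told apart; capitals mark the 14 differing bases, and the stretches are bases 935 to 1009 of the *Acot2* and 812 to 886 of the *Acot1* coding sequence (GENCODE transcripts).
Acot2: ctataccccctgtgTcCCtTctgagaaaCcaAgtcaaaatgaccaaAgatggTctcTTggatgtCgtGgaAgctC
Acot1: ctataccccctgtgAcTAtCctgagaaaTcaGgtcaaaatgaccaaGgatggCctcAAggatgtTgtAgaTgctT
Summing the counts of both genes, an alternative chosen after seeing the data, gave a log2 fold change of -0.78 (adjusted p = 0.00803, edgeR). Per kb, *Acot2* was 84.9 ± 8.31 times *Acot1* in AdLacZ and 85.3 ± 32.2 times in AdLmo3. *Acot13* (0.10), the small mitochondrial thioesterase, and *Acot8* (-0.042), a peroxisomal one, had overlapping groups.

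Peroxisomes import acyl-CoA through ABC transporters of the D class. *Abcd2*, for very long and polyunsaturated chains, was at 196, 121 and 172 CPM in AdLacZ and 176, 190 and 274 CPM in AdLmo3. The groups overlapped, and AdLmo3 replicate 3 stood above all others. Its log2 fold change of 0.39 was nearly as large as that of *Scp2*, but with an SE of 0.21 (interval -0.092 to 0.86, adjusted p = 0.347, edgeR). *Abcd3*, for branched and dicarboxylic chains, was at 122 ± 6.27 and 127 ± 4.13 CPM (SD, n = 3 each), a difference of 0.06 (-0.016 with library totals only). Per kb, *Abcd2* was 0.837 ± 0.172 times *Abcd3* in AdLacZ and 1.05 ± 0.254 times in AdLmo3, with overlapping ratios.

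The 6 genes of the peroxisomal cycle all had log2 fold changes above 0, as 50.4% of all tested genes had, and *Scp2* alone was called. *Scp2* encodes the peroxisomal thiolase for branched chains, sterol carrier protein x, and from an internal start the lipid carrier SCP2, which counts per gene do not separate. It was at 290, 266 and 297 CPM in AdLacZ and 344, 385 and 391 CPM in AdLmo3. All AdLmo3 libraries were higher, replicate 1 least. On the log2 scale the rise was 0.39 (SE 0.079), or 31.3% higher (95% interval 15.7% to 49.0%), with an adjusted p of 0.0335 (edgeR). The adjusted p was 0.0527 with library totals only. Without AdLacZ replicate 1, 2 or 3 it was 0.0799, 0.0863 and 0.110, and without AdLmo3 replicate 2 or 3 it was 0.132 and 0.0901. Of its stretches of read length, 25.6% also occur elsewhere, mostly in *Scp2-ps2*.

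*Ehhadh*, the inducible bifunctional enzyme of the peroxisome, was at 1.29, 1.07 and 1.30 CPM in AdLacZ and 1.97, 1.71 and 0.888 CPM in AdLmo3. The AdLmo3 libraries lay on both sides of the AdLacZ range. The fitted log2 difference of 0.34 had an interval of -0.35 to 1.03 (adjusted p = 0.589, edgeR). *Hsd17b4*, the other bifunctional enzyme, was at 214 ± 8.60 and 218 ± 7.57 CPM (SD, n = 3 each) and per kb 196 ± 13.5 times *Ehhadh* in AdLacZ and 178 ± 75.6 times in AdLmo3. *Acox3*, an acyl-CoA oxidase for branched chains, differed by 0.05. *Acox3* and *Hsd17b4* were below 0 with library totals only, at -0.021 and -0.049.

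*Acaa1a* and *Acaa1b*, the peroxisomal thiolases for straight chains, are a second pair of near copies, identical at 96.5% of 1272 coding bases, with 358 of 1198 windows of read length alike. *Acaa1a* was at 108, 125 and 113 CPM in AdLacZ and 115, 132 and 128 CPM in AdLmo3, and *Acaa1b* at 9.97, 11.6 and 9.23 CPM and at 14.2, 10.7 and 10.6 CPM. Both overlapped between groups (0.11 and 0.20, adjusted p = 0.498 each, edgeR), and *Acaa1a* stayed 10.8 ± 0.826 and 10.4 ± 2.26 times as high per kb. The window of most difference is shown, with capitals at the 11 differing bases, as bases 244 to 318 of each coding sequence.
Acaa1a: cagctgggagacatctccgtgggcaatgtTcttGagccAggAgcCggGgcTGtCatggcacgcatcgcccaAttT
Acaa1b: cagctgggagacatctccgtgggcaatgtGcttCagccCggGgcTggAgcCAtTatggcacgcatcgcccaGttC
Reads from alike stretches may have been given to either gene or to none, so each gene's level carries that uncertainty.

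Branched chains such as phytanic acid first lose a carbon by α-oxidation. *Phyh*, the phytanoyl-CoA hydroxylase that starts this route in the peroxisome, was at 51.7, 55.7 and 55.5 CPM in AdLacZ and 68.8, 67.0 and 66.3 CPM in AdLmo3. The groups lay well apart with a narrow spread in each. On the log2 scale the rise was 0.31 (SE 0.058), or 24.2% higher (95% interval 13.2% to 36.2%), with an adjusted p of 0.0259 (edgeR). With library totals only it was 0.0527, and leaving out any single library gave 0.0569 (AdLacZ replicate 2) to 0.105 (AdLmo3 replicate 2), at log2 fold changes of 0.28 to 0.33. No read-length stretch of *Phyh* occurs in another gene. *Amacr*, the racemase that readies branched chains for oxidation, was level at 35.5 ± 1.81 and 36.1 ± 0.326 CPM (SD, n = 3 each), and at -0.052 with library totals only.

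Of the genes for export and CoA hydrolysis, *Nudt19* (0.19, groups apart, adjusted p = 0.168, edgeR), *Nudt7* (0.12) and the carnitine octanoyltransferase *Crot* (-0.14) were not called, nor was *Pex11a* (-0.12), which promotes peroxisome division. Of the *Nudt19* stretches of read length, 32.7% also lie in a gene on the opposite strand.

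**Figure D4:**
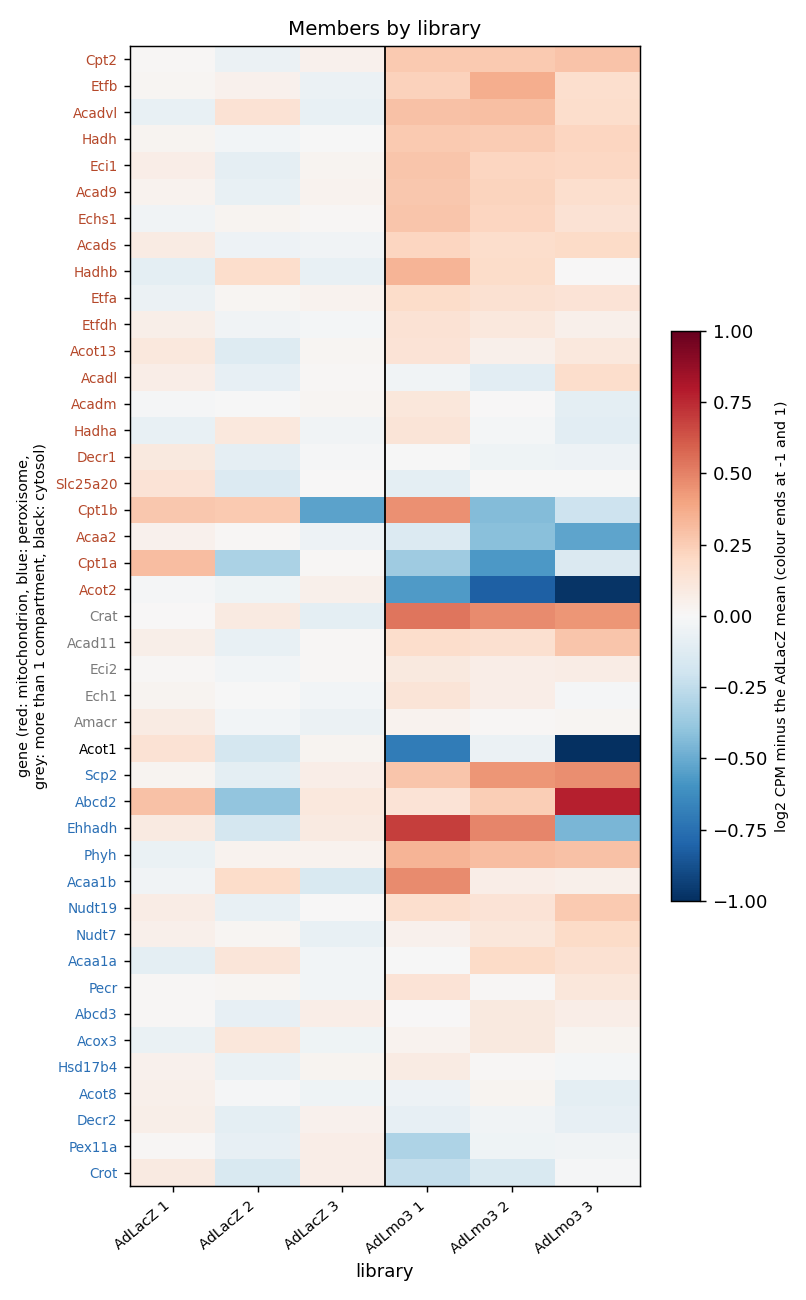
Log2 CPM of each tested gene (rows, coloured by compartment) in each of the 6 libraries (columns) minus the gene's AdLacZ mean, red above and blue below, with the colour ending at -1 and 1. Red fills most of the upper rows in the 3 AdLmo3 columns, *Acot2*, *Acaa2* and *Cpt1a* are blue there, and *Acot1*, *Cpt1b*, *Abcd2* and *Ehhadh* differ among libraries of a group.

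Mitochondrial and peroxisomal genes were set side by side. The 21 mitochondrial genes had a median log2 fold change of 0.10 with 14 above 0, and the 16 tested peroxisomal genes a median of 0.10 with 12 above 0. With library totals only the medians were 0.026 and 0.027, against -0.072 over all tested genes (0.0014 with TMM scaling). edgeR called 0 higher and 1 lower (*Acot2*) on the mitochondrial side and 2 higher (*Scp2* and *Phyh*) and 0 lower on the peroxisomal side, with *Crat* counted in neither. DESeq2 added 6 higher (*Cpt2*, *Acad9*, *Hadh*, *Echs1*, *Eci1*, *Etfb*) and 1 lower (*Acaa2*), all mitochondrial. It also called more genes at large, 8.55% of the 12917 it tested, against 4.28% in edgeR. At an unadjusted p under 0.05 the mitochondrial genes numbered 9 higher and 2 lower and the peroxisomal genes 3 higher and 0 lower, where 20.6% of all tested genes were under it. The groups did not overlap for 11 of 21 mitochondrial genes (52.4%) and for 3 of 16 peroxisomal genes (18.8%), against 26.5% of all tested genes. Under library totals alone these shares were 47.6% (8 higher and 2 lower) and 18.8% (2 higher and 1 lower). For all tested genes the share was then 30.7%, with 1043 higher and 2870 lower.

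In summed level, the mitochondrial genes held 5242, 5301 and 5179 CPM in AdLacZ and 5799, 5565 and 5389 CPM in AdLmo3, 6.56% higher on the means, and all 3 AdLmo3 sums were above the AdLacZ sums. The peroxisomal genes held 1391, 1273 and 1380 CPM in AdLacZ and 1436, 1517 and 1601 CPM in AdLmo3, 12.6% higher, again without overlap. Between their means (1348 and 1518 CPM), *Scp2* added 89.1 CPM and *Abcd2*, whose groups overlapped, 50.0 CPM. Of the 16 tested peroxisomal genes, 4 had a log2 fold change below 0. On the mitochondrial side *Acadvl* added most, 114 CPM, and *Acaa2* stood at -68.3 CPM. Neither separation of the sums held with library totals only. The mitochondrial sums were then 5447, 5404 and 5276 CPM in AdLacZ and 5709, 5434 and 5193 CPM in AdLmo3, 1.29% higher on the means. The peroxisomal sums were 1445, 1298 and 1406 CPM in AdLacZ and 1414, 1481 and 1543 CPM in AdLmo3, 6.95% higher. In both the groups overlapped. The ratio of the mitochondrial to the peroxisomal sum was 3.89 ± 0.232 in AdLacZ and 3.69 ± 0.336 in AdLmo3 (SD, n = 3 each), and the libraries overlapped, so no shift between the compartments was seen beyond the spread. Between libraries the sides did not move alike: AdLmo3 replicate 1 had the highest mitochondrial and the lowest peroxisomal sum of its group, and AdLmo3 replicate 3 the reverse.

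The 5 genes placed in more than 1 compartment were all above 0, as 50.4% of all tested genes were. They ran from *Amacr* at 0.022 to *Crat* at 0.48, and *Crat* alone was called. With library totals only, *Amacr* and *Ech1* were below 0, at -0.052 and -0.011. *Crat* also added most to the rise of the summed level, 171 CPM between the means, followed by *Acadvl* with 114 CPM. Without *Crat*, taken out because it added most, the summed level of the other genes was 7086 ± 49.7 CPM in AdLacZ and 7634 ± 133 CPM in AdLmo3 (SD, n = 3 each), 7.74% higher, and 2.39% higher with library totals only, where the groups overlapped.

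Quantitative PCR primers listed with the experiments cover 5 of these genes and are given because they show which part of each transcript such an assay reads. They were matched here to GENCODE transcripts on GRCm38. Each line gives the forward and then the reverse primer, 5′ to 3′.
Acadl forward: agctgatcgcaagacagatcg
Acadl reverse: agaatccgcattagctgcatg
Acadm forward: atgacggagcagccaatga
Acadm reverse: atggccgccacatcaga
Cpt1a forward: caagccagacgaagaacatcg
Cpt1a reverse: ccttcagcgagtagcgcatag
Ehhadh forward: agaggcgcaggataccttgag
Ehhadh reverse: cagttggactgatggcattgac
Hadhb forward: gctggcttctctgataagactcc
Hadhb reverse: ccaacagctgtggtcatgg
The products are 71 to 106 bases long. The *Acadm* (chr3:153936379-153937726, exons 6 and 7), *Ehhadh* (chr16:21777895-21787804, exons 1 and 2) and *Hadhb* (chr5:30172638-30173816, exons 7 and 8) products cross an exon junction, whereas those of *Cpt1a* (chr19:3356328-3356417, exon 4) and *Acadl* (chr1:66831384-66831468, exon 11, the last) lie in 1 exon. The *Acadl* and *Ehhadh* products reach outside the coding sequence. In the counts none of these 5 genes was called.

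Genes around the pathway were read from the same fit. Of 67 such genes, 58 were tested, and 4 were called higher and 2 lower, 10.3% against the 4.28% of all genes. Activation of the fatty acid by CoA comes before both routes. *Acsl1*, the main acyl-CoA synthetase of fat cells, was at 2731, 2421 and 2659 CPM in AdLacZ and 3766, 3863 and 3957 CPM in AdLmo3. It rose by 0.57 (SE 0.082, adjusted p = 0.0115, edgeR), with groups far apart, and lost its call without AdLacZ replicate 3 (0.0693) or AdLmo3 replicate 2 (0.0574). *Acsl4*, which prefers arachidonate, fell, from 162, 175 and 185 CPM to 130, 122 and 127 CPM (-0.46, SE 0.073, adjusted p = 0.0145, edgeR), and lost its call without AdLacZ replicate 2 (0.0506) or 3 (0.0785) or AdLmo3 replicate 2 (0.0834). The other 4 tested genes of activation, *Acsl3*, *Acsl5*, *Slc27a1* and *Slc27a4*, were not called.

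*Acox2*, the peroxisomal oxidase for branched chains and bile acid intermediates, had the largest fall, from 13.4, 20.7 and 17.6 CPM in AdLacZ to 6.61, 9.34 and 4.66 CPM in AdLmo3. The groups did not overlap (-1.32, SE 0.25, adjusted p = 0.0268, edgeR). Without AdLacZ replicate 2 or 3 or AdLmo3 replicate 1 the adjusted p was 0.0794, 0.116 and 0.0589. *Acad10*, a further acyl-CoA dehydrogenase (0.35, adjusted p = 0.0287), and *Pxmp4*, a peroxisomal membrane protein (0.33, adjusted p = 0.0287), rose. Both kept the call without AdLmo3 replicate 1 and lost it without any other library (0.0722 to 0.108 for *Acad10*, 0.0543 to 0.137 for *Pxmp4*), and with library totals only *Pxmp4* was at 0.0571. Of the 15 peroxin genes, which build the organelle, 0 were called in edgeR, where 1 was higher (*Pex16*) and 1 lower (*Pex2*) at an unadjusted p under 0.05, and DESeq2 called *Pex16*. Of 3 tested genes each, carnitine supply had 0 calls in edgeR and in DESeq2 (0 unadjusted), and malonyl-CoA control 0 in edgeR (1 unadjusted) and 1, *Acaca*, in DESeq2. Leaving out 1 library brought the 6 calls down to 0 (without AdLacZ replicate 3) to 5 (without AdLmo3 replicate 1).

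Among 9 regulators, *Pparg*, the adipocyte PPAR, rose, from 377, 367 and 422 CPM in AdLacZ to 493, 534 and 604 CPM in AdLmo3 (0.48, SE 0.096, adjusted p = 0.0316, edgeR). Its groups were apart, and its call was lost without any of the 3 AdLacZ libraries (0.0801 to 0.0917) and without AdLmo3 replicate 2 (0.108) or 3 (0.0710). *Ppara*, the PPAR best known for oxidation genes, was at 8.30 ± 0.699 and 9.68 ± 0.699 CPM (SD, n = 3 each; 0.22, adjusted p = 0.308, edgeR), and the coactivator gene *Ppargc1a* at 32.9 ± 3.03 and 34.7 ± 2.21 CPM (0.08, adjusted p = 0.668). Of the 8 regulators besides *Pparg*, edgeR called 0 (4 at an unadjusted p under 0.05, as 20.6% of all tested genes were) and DESeq2 2, *Rxra* and *Ppargc1b*, both higher. *Ppargc1b*, the related coactivator gene, was at 13.8 ± 3.59 and 26.6 ± 7.35 CPM (SD, n = 3 each), with groups apart. Its log2 fold change was 0.94 (SE 0.23, adjusted p = 0.0610, edgeR).

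Since PPARs bind a direct repeat of AGGTCA spaced by 1 base, the 250 bases before each RefSeq start were searched on both strands for AGGTCA, any base (N) and AGGTCA again, in RefSeq promoters of GRCm38.p6. Of the 44 genes, 35 had an entry, with 37 windows, of which 23 hold bases that GENCODE annotates as exon of this or another gene. No window held the repeat exactly, as in 0.0335% of all 32851 windows, and 3 held it with at most 2 mismatches (8.11%, against 3.24% of all windows), those of *Echs1*, *Etfa* and *Acot4*. A lone exact AGGTCA, which is part of the longer repeat, was in 6 of 37 windows (16.2%) and 14.0% of all. The windows of the called genes with an entry are shown as the stretches that the search covered in them. None of these 3 holds annotated exon bases. That of *Scp2* (chr4:108118548-108118797, minus strand), which lies just before the start of the gene's principal GENCODE transcript and inside the span of longer ones, holds 1 exact AGGTCA, in capitals, and those of *Phyh* (chr2:4918746-4918995, plus strand) and *Acot2* (chr12:83987611-83987860, plus strand) hold none.
Scp2: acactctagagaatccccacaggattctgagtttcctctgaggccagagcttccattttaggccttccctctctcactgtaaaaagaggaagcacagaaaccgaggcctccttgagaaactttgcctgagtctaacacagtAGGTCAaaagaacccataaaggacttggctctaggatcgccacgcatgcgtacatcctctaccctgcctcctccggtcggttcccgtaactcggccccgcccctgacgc
Phyh: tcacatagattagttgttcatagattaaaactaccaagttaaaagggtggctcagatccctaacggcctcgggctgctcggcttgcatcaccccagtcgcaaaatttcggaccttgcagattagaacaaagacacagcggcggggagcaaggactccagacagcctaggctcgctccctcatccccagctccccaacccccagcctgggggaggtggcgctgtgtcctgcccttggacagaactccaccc
Acot2: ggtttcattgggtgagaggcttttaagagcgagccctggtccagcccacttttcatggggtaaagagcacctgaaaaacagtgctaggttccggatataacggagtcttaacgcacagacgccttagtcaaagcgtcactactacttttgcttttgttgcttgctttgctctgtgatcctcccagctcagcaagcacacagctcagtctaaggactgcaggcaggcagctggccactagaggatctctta
These letters say nothing of whether a factor binds there, and motifs farther from the start were not searched.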

How the data were processed

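RNA-Seq libraries of AdLacZ and AdLmo3 adipocytes (3 each; group and replicate from the sample titles) were read as single reads of 75 bases. Per the labels and methods, the authors mapped them with STAR 2.5.0b to mm10 (written mmc10 in the methods) and deposited raw counts of reads per gene symbol, without normalization; the counting program, its strand setting and the annotation are not given in the sources used here. Reads given to no gene (7.15% to 8.94%) or to several (0.476% to 0.543%) were left out. The counts were fitted with edgeR 4.0.16 under R 4.3.3 (low-count filter filterByExpr, TMM scaling, quasi-likelihood test, group as the only term; biological coefficient of variation 0.119), a step checked on simulated counts. CPM are TMM-scaled; CPM per kb use the GENCODE principal transcript. p-values measure only the spread between these infections of 1 line.

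The members and the lists were chosen with earlier results of these data known. Values per library are given for called genes, the 10 largest absolute log2 fold changes, the 5 highest levels per kb, the PCR panel, near copies and *Cpt1b*; of the other lists, called genes (up to 6) and *Pparg*, *Ppara* and *Ppargc1a* are named. Genes named beside these, such as the ratio of *Hadha* to *Hadhb*, were picked after their values were seen. Alternatives were DESeq2 1.42.0, limma voom 3.58.1, 3 other scalings, 2 other filters, a replicate block, leaving out each library and, added after the data were seen, summing near copies and sums with library totals only.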

Additional observations from a re-analysis of the deposited data

How the results depend on the processing

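The count of called genes moved with the tool and with single libraries. DESeq2 called 1104 of 12917 tested genes (8.55%). Of 43 oxidation genes it called 9 higher (*Cpt2*, *Crat*, *Acad9*, *Hadh*, *Echs1*, *Eci1*, *Etfb*, *Scp2*, *Phyh*) and 2 lower (*Acaa2*, *Acot2*). It also called 11 other genes of the pathway. With library totals only, 1 oxidation gene was called higher (*Crat*). The medians fell to 0.026 (mitochondrial) and 0.027 (peroxisomal), and that of all tested genes to -0.072. In a reading chosen after seeing the data, the mitochondrial, peroxisomal and joint summed levels were then 1.29%, 6.95% and 4.14% higher in AdLmo3, with overlapping groups. Leaving out 1 library gave 77 to 501 called genes, 0 to 2 oxidation genes higher, 0 to 2 lower and 0 to 5 other pathway genes. The lowest counts came without AdLacZ replicate 3 (77 genes, no oxidation gene) and without AdLmo3 replicate 2 (152 genes, *Acot2* alone); without AdLacZ replicate 1 or 2 or AdLmo3 replicate 3, *Crat* and *Acot2* were left, and without AdLmo3 replicate 1, *Crat*, *Scp2*, *Acaa2* and *Acot2*. With library totals only, *Acadm*, *Acadl*, *Ech1*, *Abcd3*, *Acox3*, *Hsd17b4* and *Amacr* turned to -0.060, -0.059, -0.011, -0.016, -0.021, -0.049 and -0.052, and *Hadha* was at 0.0020 with DESeq2 and 0.0017 with DESeq2's size factors in edgeR. Over the libraries left out, *Cpt1b* ranged from -0.37 to 0.14, *Slc25a20* from -0.11 to 0.033, *Acadm* from -0.038 to 0.063, *Acadl* from -0.070 to 0.073, *Hadha* from -0.061 to 0.055, *Decr1* from -0.076 to 0.018, *Hsd17b4* from -0.0080 to 0.047 and *Amacr* from -0.0055 to 0.064, none of them called. Apart from library totals only, where the scale itself differs, the cause was not tested. *Acot2* was called in 14 of 15 settings, *Crat* in 12 of 14, *Scp2* in 7 of 14 and *Phyh* in 6 of 14.

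The groups share replicate numbers, but deviations of same-numbered libraries correlated by 0.035, 0.18 and 0.18, so they were not taken as pairs. A fit with a replicate block called 498 genes, among them 1 oxidation gene higher (*Crat*) and 1 lower (*Acot2*), while *Scp2* and *Phyh* had adjusted p-values of 0.0509 and 0.0511 and *Pxmp4* of 0.0557 (edgeR).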
